A study of Mus musculus with 24 samples.

Results

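The DNA replication and G1/S genes described here are 41 genes chosen by name: the subunits of the replicative helicase and the proteins that load it, the sliding clamp and its loader, the replicative polymerases, the single-strand binding protein, enzymes of nucleotide supply, the E-type cyclins with E2f1, and 4 genes of replication-coupled chromatin and histone mRNA. All 41 were in the deposited table of expected counts and had at least 0.5 CPM (counts scaled to a common library size) in at least 3 samples, a level that 13901 of the 39253 listed genes reached. Their mean count per library ran from 307 to 6730.

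In G1, the origin recognition complex, Cdc6 and Cdt1 load the MCM helicase onto origins. Cyclin E with its kinase, Cdc45 and the GINS complex then switch the helicase on at the start of S phase, and the polymerases copy both strands behind it from a pool of deoxynucleotides. Many of these genes are transcribed as cells pass from G1 to S, under E2F factors that the retinoblastoma family holds back. In bulk samples, fewer cells in S phase and less RNA per cell cannot be told apart.

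RNA-seq was performed on 24 samples of the mouse neuroblastoma line Neuro2A, 3 in each of 8 groups. In 6 groups, cells had been transiently transfected with a plasmid for RfxCas13d, HiFi-RfxCas13d or DiCas7-11, RNA-targeting CRISPR effector proteins, together with, as the labels name them, either the mATXN2-targeting crRNA or the non-targeted (NTG) crRNA, and were harvested 48 hr later. The other two groups were untransfected cells and cells with an antisense oligonucleotide (ASO) directed at Atxn2, whose route of delivery is not given in the sources used here. The genotype was wild-type in all 24. A transient transfection does not reach every cell, so a transfected sample may be a mixture. The labels name the control arm as a non-targeting crRNA, whereas the count table's column names give it as EV and the targeting arm as G12 where the titles have G10, so it is not certain that this arm had a crRNA, and it is called NTG below. The study describes the replicates of its cell experiments as biologically independent. Totals were 12665725 to 19857305 counts outside the ASO group and 21874644 to 22504999 within it, so depth and the ASO cannot be told apart.

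Of 11 sympathoadrenal markers, 10 had a mean of at least 1 CPM and Th, at 0.915 CPM, did not, with summed levels of 1362 to 1459 CPM. Markers of other cells summed to 5.16 to 8.48 CPM for fibroblasts (1 of 6 over 1 CPM, Pdgfra), 0.0639 to 2.42 for macrophages (0 of 4, Adgre1 at 0), 5.79 to 10.0 for endothelium (1 of 3, Pecam1) and 9.42 to 14.6 for glia (1 of 4, Mbp, with Aqp4 at 0). Atxn2, the targeted transcript, stood at 123 ± 1.78 CPM (SD, n = 3) in untransfected cells and 52.0 ± 2.77 CPM with the ASO. With the mATXN2 crRNA it was -0.23 ± 0.04 (log2 fold change ± SE) against NTG for HiFi-RfxCas13d (edgeR adjusted p = 0.00157) and -0.20 ± 0.04 for DiCas7-11 (edgeR adjusted p = 0.00557). For RfxCas13d it was -0.10 ± 0.04, which missed the threshold (edgeR adjusted p = 0.178). Replicate pairs differed by 1.68 to 2.55 times counting noise (chi-square per gene) in 7 groups and by 3.33 to 5.58 times among the DiCas7-11 NTG samples.

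Many S-phase promoters carry E2F words and CCAAT boxes, and the promoters of the set were read for both. RefSeq windows of 300 bases (build GRCm38.p6, 250 bases before the start and 50 after) were given for 34 of the 41. An E2F word (TTTCCCGC, TTTGGCGC, TTTCGCGC or TTTGCCGC, on either strand) was in the windows of 13 of those 34 genes, 38.2%, and in 2.60% of all 27025 genes with a window. CCAAT, on either strand, was in 22 of the 34 (64.7%) against 41.1% of all genes. TTTGAA, the core of the CHR element of late cell-cycle genes, was in 4 (11.8%) against 20.2%. The 5 windows printed first belong to genes whose levels are described below and that hold an E2F word. Lig1 and Uhrf1 had more than 1 window, and a window with the most E2F words is printed. Those of Rrm2 and Tk1, genes of nucleotide supply, hold none. Capitals mark the E2F word and CCAAT, each on either strand.
Mcm3 promoter, GRCm38.p6 chr1:20820263-20820562, minus strand: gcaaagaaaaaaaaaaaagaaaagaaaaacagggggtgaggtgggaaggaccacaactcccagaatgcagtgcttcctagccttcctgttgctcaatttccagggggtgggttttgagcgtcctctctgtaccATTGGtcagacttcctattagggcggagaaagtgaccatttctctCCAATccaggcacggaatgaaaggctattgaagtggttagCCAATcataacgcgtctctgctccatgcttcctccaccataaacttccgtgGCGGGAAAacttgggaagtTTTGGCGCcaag
Cdc6 promoter, GRCm38.p6 chr11:98907901-98908200, plus strand: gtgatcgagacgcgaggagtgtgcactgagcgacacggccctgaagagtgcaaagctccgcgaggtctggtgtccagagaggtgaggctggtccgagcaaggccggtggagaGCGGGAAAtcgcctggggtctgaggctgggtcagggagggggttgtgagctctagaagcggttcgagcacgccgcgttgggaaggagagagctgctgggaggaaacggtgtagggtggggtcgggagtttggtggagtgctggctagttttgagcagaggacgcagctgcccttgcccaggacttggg
Pola1 promoter, GRCm38.p6 chrX:93632106-93632405, minus strand: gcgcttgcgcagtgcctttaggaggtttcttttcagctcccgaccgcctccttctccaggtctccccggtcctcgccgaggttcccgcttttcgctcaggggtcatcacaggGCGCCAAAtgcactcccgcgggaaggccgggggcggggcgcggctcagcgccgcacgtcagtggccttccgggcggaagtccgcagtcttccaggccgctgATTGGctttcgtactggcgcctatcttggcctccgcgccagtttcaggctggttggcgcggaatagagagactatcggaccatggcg
Lig1 promoter, GRCm38.p6 chr7:13278576-13278875, plus strand: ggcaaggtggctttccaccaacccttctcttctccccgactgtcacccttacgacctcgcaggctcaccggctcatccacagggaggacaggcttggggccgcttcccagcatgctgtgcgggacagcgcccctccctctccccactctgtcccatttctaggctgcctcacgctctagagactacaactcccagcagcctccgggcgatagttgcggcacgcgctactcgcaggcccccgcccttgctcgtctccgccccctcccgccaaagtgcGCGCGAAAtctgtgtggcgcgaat
Uhrf1 promoter, GRCm38.p6 chr17:56304063-56304362, plus strand: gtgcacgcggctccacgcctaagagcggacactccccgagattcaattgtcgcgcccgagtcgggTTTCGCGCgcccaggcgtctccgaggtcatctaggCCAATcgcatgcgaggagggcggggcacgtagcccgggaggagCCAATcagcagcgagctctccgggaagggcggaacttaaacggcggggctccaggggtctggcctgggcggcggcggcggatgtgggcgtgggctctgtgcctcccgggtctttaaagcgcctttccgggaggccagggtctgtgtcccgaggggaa
Rrm2 promoter, GRCm38.p6 chr12:24708004-24708303, plus strand: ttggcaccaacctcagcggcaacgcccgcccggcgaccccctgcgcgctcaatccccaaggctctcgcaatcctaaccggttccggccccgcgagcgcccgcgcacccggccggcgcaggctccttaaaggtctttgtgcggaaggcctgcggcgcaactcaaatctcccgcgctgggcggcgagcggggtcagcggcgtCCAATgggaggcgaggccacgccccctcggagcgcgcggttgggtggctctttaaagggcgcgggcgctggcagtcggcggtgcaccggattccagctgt
Tk1 promoter, GRCm38.p6 chr11:117825965-117826264, minus strand: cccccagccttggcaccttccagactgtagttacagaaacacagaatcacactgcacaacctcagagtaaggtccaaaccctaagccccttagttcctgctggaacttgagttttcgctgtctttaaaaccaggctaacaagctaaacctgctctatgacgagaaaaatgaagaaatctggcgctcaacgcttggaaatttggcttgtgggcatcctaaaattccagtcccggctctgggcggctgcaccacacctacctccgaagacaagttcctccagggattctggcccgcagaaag

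In the window of Mcm3, 2 E2F words stood 19 and 38 bases past the start, behind 3 CCAAT boxes. In Cdc6 and Pola1 the word stood 138 bases before the start, in Uhrf1 185 bases before it and in Lig1 26 bases past it. Rrm2 had a single CCAAT box 50 bases before the start, and Tk1 had none of these words. A match is a run of letters and not a binding site, and a window without a match says only that these letters were not in it.

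In untransfected cells the set was expressed well above the typical gene. Its median level per length was 38.8 CPM per kb of transcript, against 10.7 for the 12292 tested genes with a length, and 39 of the 41 lay above that median. Pcna, the sliding clamp, was highest at 177 ± 7.15 CPM per kb (SD, n = 3), with none of its samples overlapping the next gene, the helicase subunit Mcm6 (104 ± 4.91). Rrm1, the large subunit of ribonucleotide reductase (97.2 ± 4.0), and Rpa3, the small subunit of the single-strand binding protein (91.6 ± 6.36), followed. At the other end were Gins2 (11.2 ± 0.446), Gins3 (6.36 ± 1.12) and Orc1 (5.50 ± 0.599), the origin recognition subunit that is degraded and remade each cycle. Of the 40 pairs of neighbours in this order, 22 overlapped in their samples. Subunits of a complex were not level with each other per kb of transcript: the RFC genes spanned 13.7 (Rfc2) to 53.0 (Rfc1) CPM per kb, and the Mcm2 to Mcm7 genes 45.2 (Mcm4) to 104 (Mcm6). The order depended on the length used. Per kb of coding sequence, an alternative added after the data were seen, Gins2 moved from place 39 to 17 of 41 (78.4 CPM per kb) and Rfc2 from 38 to 22 (65.2), Pcna and Orc1 held the ends, and the RFC genes spanned 27.6 (Rfc4) to 86.2 (Rfc5). The plot of level per length shows the whole order.

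**Figure D1:**
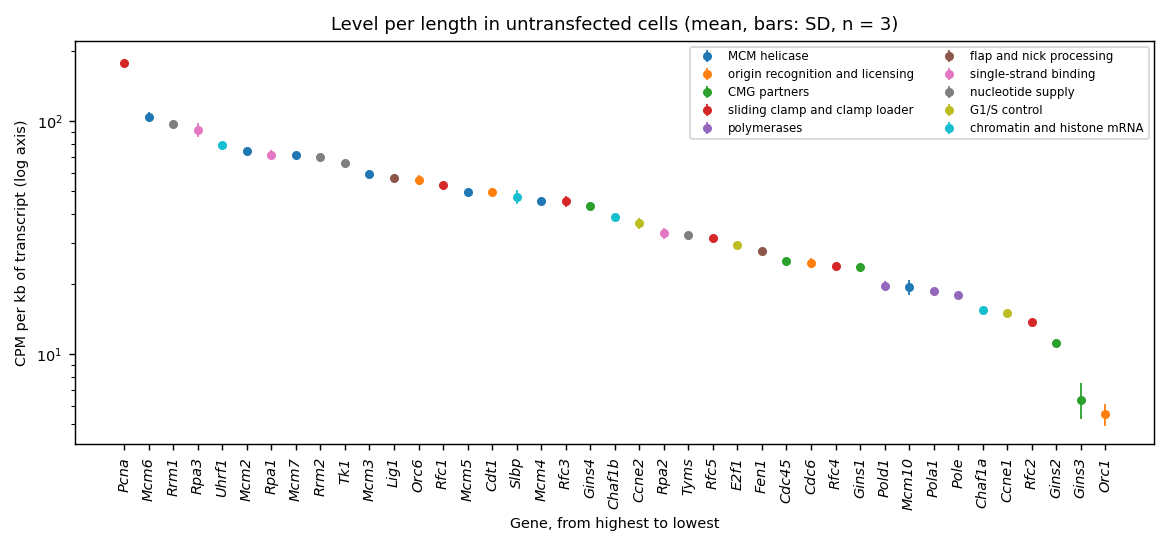
Mean level per kb of transcript (log axis, CPM per kb) of the 41 genes in the 3 untransfected samples, from highest to lowest, with SD bars and colors by role. Pcna stood alone at 177, Mcm6 to Gins2 lay between 104 and 11.2, and Gins3 and Orc1 closed the order at 6.36 and 5.50.

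Summed over the set, these genes held 0.478% to 0.501% of all counts in the untransfected samples. The NTG samples of RfxCas13d held 0.505% to 0.509%, those of HiFi-RfxCas13d 0.510% to 0.522%, and those of DiCas7-11 0.518% to 0.528%. The ASO samples held 0.493% to 0.497%. Every transfected sample lay above every untransfected and ASO sample, while the ASO samples lay within the untransfected range. Untransfected sample 1, at 0.478%, lay below the other untransfected samples, at 0.498% and 0.501%. The set's counts and median fold changes against untransfected cells are therefore given without that sample as well. The further lists of replication and mitosis genes are given over all samples only.

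**Figure D2:**
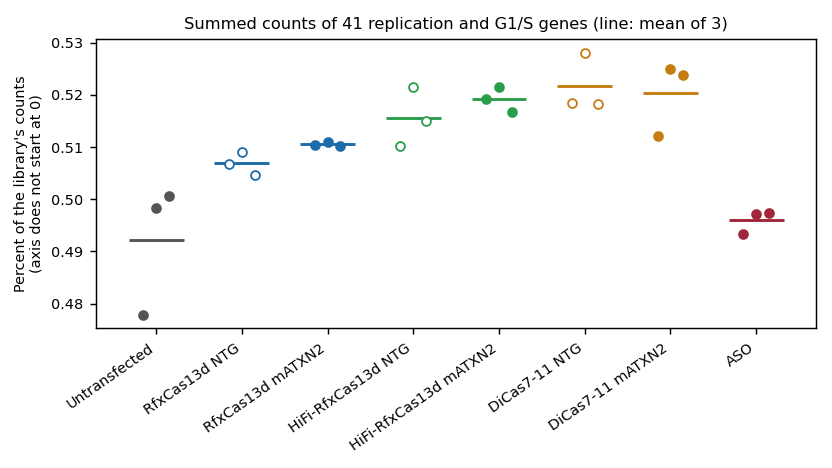
Percent of each library's counts that fell on the 41 genes, by group, with 1 point per sample and a line at the mean of 3. The 18 transfected samples (0.505% to 0.528%) sit above the untransfected (0.478% to 0.501%) and ASO (0.493% to 0.497%) samples, and untransfected sample 1 is the lowest of all.

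Comparing the NTG arms with untransfected cells asks what transfection with an effector and without a targeting crRNA did to the set. More of its genes rose than fell with each effector, and the largest rise was 22.8% (Ccne2 with DiCas7-11). Those that rose included helicase subunits, Cdc6, Cdt1, Rrm2 and Ccne2, and those that fell were Rpa3, Rfc2 and Tk1. RfxCas13d NTG had 6 genes that rose and 1 that fell (edgeR's quasi-likelihood test, Benjamini-Hochberg adjusted p under 0.05), where 5.60% of all tested genes rose and 5.66% fell. HiFi-RfxCas13d NTG had 11 that rose and 2 that fell, where 10.3% of all genes rose and 10.6% fell. DiCas7-11 NTG had 16 that rose and none that fell, where 11.1% rose and 10.8% fell. Over the mean of the 3 effectors, 18 of the 41 rose and 2 fell, against 12.4% and 12.7% of all genes. The median log2 fold change of the set in that mean was 0.07, against -0.01 for all genes.

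These counts leaned on untransfected sample 1. Without it, 2 genes passed for RfxCas13d (Mcm7 rose and Rpa3 fell), 10 for HiFi-RfxCas13d and 8 for DiCas7-11, and 8 passed in the mean of the effectors, of which Mcm3, Mcm7, Mcm10, Cdc6, Rrm2 and Ccne2 rose and Rpa3 and Tk1 fell. For RfxCas13d the count was also 2 without its NTG sample 1 and 4 without its NTG sample 2. For DiCas7-11 it was 7 in a fit of only the untransfected and DiCas7-11 NTG samples. Mcm7, Mcm10 and Ccne2 passed with every effector, 9 genes with 2 effectors, 9 with a single effector and 20 with none. The arms share the untransfected samples, and the matching shares of all tested genes were not counted. Mcm7 lost its RfxCas13d call without that arm's sample 1 (adjusted p = 0.0813), its HiFi-RfxCas13d call without that arm's sample 2 (adjusted p = 0.103) and its DiCas7-11 call without untransfected samples 2 or 3 or that arm's samples 2 or 3, and with the coding length correction and in a fit of only the samples compared (adjusted p = 0.0523 to 0.0991).

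Comparing the ASO with untransfected cells asks what the oligonucleotide did without a plasmid or an effector. Of the 41, 6 rose (Mcm3, Mcm5, Mcm10, Orc6, Cdt1 and Chaf1b) and 11 fell (Rfc2, Rfc5, Pola1, Lig1, Rpa3, Rrm1, Rrm2, Tyms, Tk1, Ccne1 and Uhrf1), while 21.0% of all tested genes rose and 21.7% fell. All 4 genes of nucleotide supply were among those that fell. The median log2 fold change of the set was -0.01, against -0.002 for all genes. Set against the mean of the NTG arms, a comparison added after the data were seen, 1 gene rose with the ASO (Chaf1b) and 18 fell, against 19.5% and 20.9% of all genes, and the set's median was -0.06. The ASO and NTG comparisons share the untransfected samples. Without untransfected sample 1, 14 genes passed for the ASO (3 rose, 11 fell): Mcm5, Orc6, Chaf1b and Rfc2 no longer passed, and Mcm2 did (-0.08, adjusted p = 0.0463). Leaving out any other library of that comparison gave 12 to 16. The plot of fold changes by role shows the NTG arms and the ASO side by side.

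**Figure D3:**
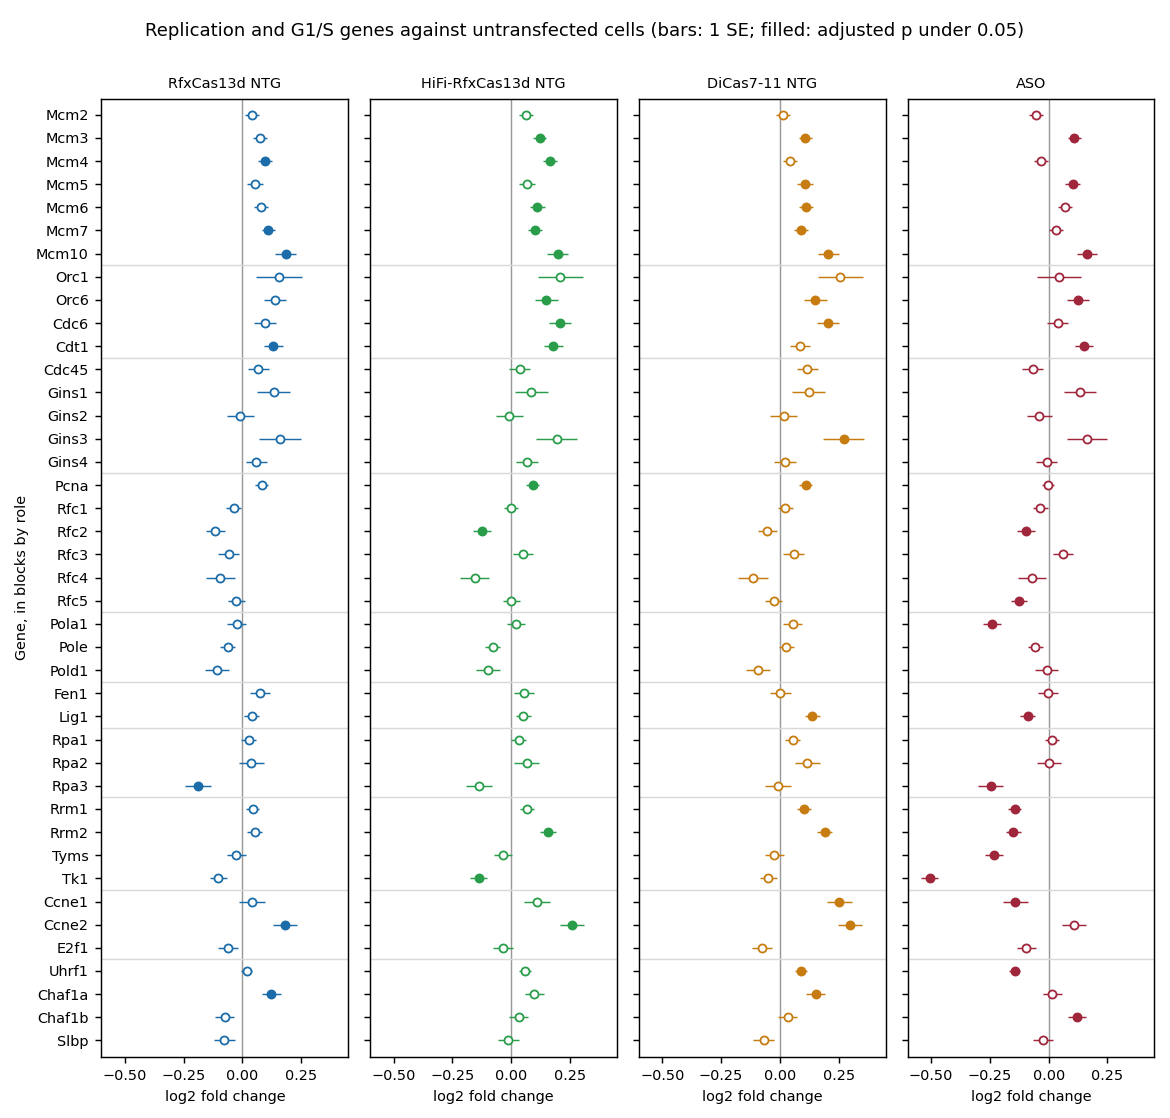
Log2 fold change of each of the 41 genes against untransfected cells in the NTG arm of each effector and with the ASO, in blocks by role (bars are 1 SE, filled points passed an edgeR adjusted p of 0.05). The blocks of the MCM genes and of licensing at the top lie to the right of 0 in all 3 NTG panels (Mcm2 with DiCas7-11 by 0.01), and the block of nucleotide supply lies to the left of 0 in the ASO panel, with Tk1 at -0.51.

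The MCM helicase is the motor that unwinds the origin, built of Mcm2 to Mcm7. The 6 subunit genes had positive fold changes in every NTG arm, with medians of 0.08, 0.11 and 0.10 on the log2 scale for RfxCas13d, HiFi-RfxCas13d and DiCas7-11, and 2, 4 and 4 of them passed. Mcm2 was 0.01 ± 0.03 with DiCas7-11 (edgeR adjusted p = 0.780), and without untransfected sample 1 it was -0.01. With that sample left out, the numbers of subunit genes that passed were 1, 3 and 1, and the medians were 0.05, 0.08 and 0.08. Mcm3 stood at 172, 180.1 and 186 CPM in the untransfected samples and at 194, 196 and 192 CPM in the ASO samples. Its NTG levels were 186, 191 and 190.3 CPM with RfxCas13d, 201, 195 and 191 CPM with HiFi-RfxCas13d and 192, 191 and 197 CPM with DiCas7-11. The HiFi-RfxCas13d, DiCas7-11 and ASO samples all lay above the untransfected ones, and the RfxCas13d samples overlapped them at the lowest value only. Mcm3 rose by 0.12 ± 0.03 (log2 ± SE, edgeR adjusted p = 0.00201) with HiFi-RfxCas13d, by 0.11 ± 0.03 (edgeR adjusted p = 0.00547) with DiCas7-11 and by 0.11 ± 0.03 (edgeR adjusted p = 0.00155) with the ASO. Without untransfected sample 1 the DiCas7-11 call was lost (adjusted p = 0.0587) and in a fit of only the samples compared (adjusted p = 0.0763).

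Mcm4 was measured at 156, 168 and 162 CPM in untransfected cells and at 158, 157 and 160.3 CPM with the ASO, ranges that overlapped. In the NTG arms it was 173, 174 and 174 CPM with RfxCas13d, 178, 183 and 186 CPM with HiFi-RfxCas13d and 162, 172 and 167 CPM with DiCas7-11. RfxCas13d and HiFi-RfxCas13d samples were all above the untransfected ones, whereas DiCas7-11 samples were not. The rise was 0.17 ± 0.03 with HiFi-RfxCas13d (edgeR adjusted p = 0.000187) and 0.10 ± 0.03 with RfxCas13d (edgeR adjusted p = 0.0348), a call that was lost without untransfected samples 1 or 3 or any of the RfxCas13d NTG samples, with adjusted p between 0.0606 and 0.170, and with no filter on low counts (adjusted p = 0.0540). Mcm10, a helicase activator named here for passing in all 3 NTG arms and chosen after its values were seen, was at 86.1, 97.0 and 99.2 CPM in untransfected cells and 101, 109.8 and 105 CPM with the ASO, with NTG levels of 107, 106 and 107 CPM with RfxCas13d, 105, 106 and 112 CPM with HiFi-RfxCas13d and 106, 115 and 104 CPM with DiCas7-11. All of those 12 samples lay above the 3 untransfected ones. Its log2 fold changes were 0.18 ± 0.04, 0.20 ± 0.04 and 0.21 ± 0.04 in the NTG arms (edgeR adjusted p = 0.00607, 0.00152 and 0.00102) and 0.16 ± 0.04 with the ASO (edgeR adjusted p = 0.00241). The RfxCas13d call missed the threshold without untransfected sample 1 (adjusted p = 0.0669). The group means of the remaining subunit genes over the 8 groups ran over 242 to 267 CPM for Mcm2, 167 to 189.9 CPM for Mcm5, 304 to 328 CPM for Mcm6 and 212 to 230.2 CPM for Mcm7.

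The 4 origin recognition and licensing genes also had positive fold changes in every NTG arm, with and without untransfected sample 1, with medians of 0.13, 0.19 and 0.18 over all samples. Cdc6, the loader ATPase, was at 59.1, 64.3 and 65.1 CPM in untransfected cells and 67.8, 61.3 and 64.2 CPM with the ASO. Its NTG samples read 67.7, 69.8 and 64.2 CPM with RfxCas13d, 74.3, 71.8 and 71.4 CPM with HiFi-RfxCas13d and 67.0, 75.3 and 74.2 CPM with DiCas7-11. HiFi-RfxCas13d and DiCas7-11 samples lay above all untransfected samples, and the ASO samples overlapped them. Cdc6 rose by 0.21 ± 0.05 with HiFi-RfxCas13d (edgeR adjusted p = 0.00161) and by 0.21 ± 0.05 with DiCas7-11 (edgeR adjusted p = 0.00180), and was 0.10 ± 0.05 with RfxCas13d (edgeR adjusted p = 0.194). Against the mean of the NTG arms it fell by 0.13 on the log2 scale with the ASO (edgeR adjusted p = 0.00355), a call lost without ASO sample 2 (adjusted p = 0.0599). Cdt1, the helicase-loading partner that geminin restrains, rose with RfxCas13d (0.13 ± 0.04, edgeR adjusted p = 0.0317), HiFi-RfxCas13d (0.18 ± 0.04, edgeR adjusted p = 0.00160) and the ASO (0.15 ± 0.04, edgeR adjusted p = 0.00250). For RfxCas13d that call was lost without untransfected samples 1 or 3 or NTG samples 1 or 2, with adjusted p of 0.0619 to 0.146. Orc6 rose with HiFi-RfxCas13d, DiCas7-11 and the ASO. The HiFi-RfxCas13d call was lost without untransfected samples 1 or 2 or that arm's samples 1 or 2 (adjusted p = 0.0557 to 0.108), the DiCas7-11 call without untransfected samples 1 or 2 or that arm's samples 2 or 3, and in a fit of only the samples compared (adjusted p = 0.0814 to 0.195) and the ASO call without untransfected samples 1 or 2 or ASO samples 2 or 3 (adjusted p = 0.0527 to 0.128). Orc1, the least expressed gene of the set per length, passed in no comparison. Group means ran over 108 to 127 CPM for Cdt1, 16.6 to 19.7 CPM for Orc1 and 71.7 to 83.0 CPM for Orc6.

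Of the 5 CMG partners, Cdc45 and the GINS subunits that ride with the helicase, Gins3 rose with DiCas7-11 NTG (0.27 ± 0.09, edgeR adjusted p = 0.0248), a call lost without untransfected samples 1 or 2 or that arm's sample 2, and in a fit of only the samples compared (adjusted p = 0.104 to 0.167). Cdc45 fell with the ASO against the NTG mean (-0.14 ± 0.04, edgeR adjusted p = 0.00203). In the clamp and its loader, Pcna had 269 ± 10.9 CPM in untransfected cells, 289.9 ± 4.04 CPM with DiCas7-11 NTG and 268 ± 3.02 CPM with the ASO (SD, n = 3 each). It rose with HiFi-RfxCas13d (0.09 ± 0.03, edgeR adjusted p = 0.0165) and DiCas7-11 (0.11 ± 0.03, edgeR adjusted p = 0.00449) and was -0.0031 ± 0.03 with the ASO (edgeR adjusted p = 0.940). The HiFi-RfxCas13d call was lost without untransfected sample 1 or that arm's samples 2 or 3 (adjusted p = 0.0537 to 0.132), and the DiCas7-11 call without untransfected sample 1, and in a fit of only the samples compared (adjusted p = 0.0510 to 0.0626). Rfc2 fell with HiFi-RfxCas13d NTG (-0.12 ± 0.04, edgeR adjusted p = 0.0236) and with the ASO (-0.10 ± 0.04, edgeR adjusted p = 0.0383), and Rfc5 fell with the ASO (-0.13 ± 0.03, edgeR adjusted p = 0.00388). For Rfc2 the HiFi-RfxCas13d call was lost without untransfected samples 1, 2 or 3 or that arm's samples 2 or 3, and with no filter on low counts and with DESeq2 (adjusted p = 0.0521 to 0.104), and the ASO call without untransfected samples 1, 2 or 3 or ASO samples 1 or 2, and with no filter on low counts, with DESeq2, with the coding length correction and in a fit of only the samples compared (adjusted p = 0.0675 to 0.190). Rfc1, Rfc3 and Rfc4 passed in no comparison. Group means over the 8 groups ran over 51.3 to 58.2 CPM for Cdc45, 25.8 to 29.3 CPM for Gins1, 41.5 to 44.0 CPM for Gins2, 16.0 to 19.7 CPM for Gins3 and 57.8 to 62.2 CPM for Gins4. In the clamp loader they ran over 241 to 253 CPM for Rfc1, 62.6 to 68.2 CPM for Rfc2, 57.1 to 62.0 CPM for Rfc3, 27.5 to 30.6 CPM for Rfc4 and 80.3 to 87.7 CPM for Rfc5.

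Pola1, the catalytic subunit of the primase-bound polymerase that starts every fragment, separated the ASO from all other groups. Its levels were 97.0, 98.5 and 102 CPM in untransfected cells and 83.3, 84.5 and 83.7 CPM with the ASO. The NTG arms read 97.4, 97.1 and 97.7 CPM with RfxCas13d, 98.1, 99.8 and 104 CPM with HiFi-RfxCas13d and 99.4, 109 and 99.8 CPM with DiCas7-11. Every ASO sample lay below every sample of the other 7 groups, and each NTG arm overlapped the untransfected samples. The fall with the ASO was -0.24 ± 0.04 (edgeR adjusted p = 1.04e-05), and with the NTG arms Pola1 was -0.02 ± 0.04, 0.02 ± 0.04 and 0.05 ± 0.04 (edgeR adjusted p = 0.762, 0.778 and 0.366). Pole and Pold1, the leading- and lagging-strand polymerases, did not pass against untransfected cells in any arm, with log2 fold changes between -0.11 and 0.03. Their group means ran over 121 to 133 CPM for Pole and 62.9 to 67.9 CPM for Pold1.

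Lig1, the ligase that seals lagging-strand nicks, was at 173, 187 and 182 CPM in untransfected cells and at 166, 168 and 175 CPM with the ASO, and these ranges overlapped. In the NTG arms it was 185, 187 and 185 CPM with RfxCas13d, 191, 191 and 179 CPM with HiFi-RfxCas13d and 191, 207 and 197 CPM with DiCas7-11. Only the DiCas7-11 samples lay above all untransfected ones. It rose with DiCas7-11 NTG by 0.14 ± 0.03 (edgeR adjusted p = 0.00263) and fell with the ASO by 0.09 on the log2 scale (edgeR adjusted p = 0.0253), a call lost without untransfected samples 2 or 3 or ASO samples 1 or 2 (adjusted p = 0.0797 to 0.178) and with no filter on low counts (adjusted p = 0.0550). Fen1, its partner in flap removal, was -0.0018 ± 0.04 with the ASO (edgeR adjusted p = 0.978). Among the single-strand binding subunits, Rpa3 fell with RfxCas13d NTG (-0.19 ± 0.06, edgeR adjusted p = 0.0250) and with the ASO (-0.25 ± 0.05, edgeR adjusted p = 0.000443), while Rpa1 and Rpa2 passed nowhere. The RfxCas13d call of Rpa3 was lost without untransfected samples 2 or 3 or that arm's samples 2 or 3, and with the coding length correction (adjusted p = 0.0510 to 0.169). Its ASO call was kept, with log2 fold changes of -0.30 to -0.14 over the alternatives. The highest edgeR adjusted p there was 0.0233, with the coding length correction. Group means ran over 65.8 to 74.2 CPM for Fen1, 210.3 to 218 CPM for Rpa1, 59.9 to 65.7 CPM for Rpa2 and 51.7 to 61.3 CPM for Rpa3.

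The 4 genes of nucleotide supply make the precursors of DNA, and Tk1 among them held the largest fold change of the set. Tk1, the salvage kinase for thymidine, was at 93.3, 96.1 and 94.8 CPM in untransfected cells and 66.5, 67.0 and 66.7 CPM with the ASO. Its NTG samples were at 87.0, 89.3 and 88.5 CPM with RfxCas13d, 81.9, 90.1 and 86.0 CPM with HiFi-RfxCas13d and 95.1, 86.7 and 93.4 CPM with DiCas7-11. All ASO samples lay below all 21 other samples, and the RfxCas13d and HiFi-RfxCas13d NTG samples also lay below the untransfected ones. The ASO difference was -0.51 ± 0.04 (edgeR adjusted p = 3.78e-12), the lowest p of the set. Tk1 also fell with HiFi-RfxCas13d NTG (-0.14 ± 0.04, edgeR adjusted p = 0.00652), a call lost without that arm's sample 1 (adjusted p = 0.0545), and was -0.10 ± 0.04 with RfxCas13d NTG (edgeR adjusted p = 0.0650).

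Rrm2, the small subunit of ribonucleotide reductase and the one whose supply limits the enzyme in S phase, moved both ways. It was 147, 158 and 156 CPM in untransfected cells and 141, 140.2 and 134 CPM with the ASO. The NTG levels were 157, 163 and 157 CPM with RfxCas13d, 165, 175 and 173 CPM with HiFi-RfxCas13d and 174, 175 and 176 CPM with DiCas7-11. ASO samples lay below, and HiFi-RfxCas13d and DiCas7-11 NTG samples above, every untransfected sample. Rrm2 rose by 0.16 ± 0.03 (edgeR adjusted p = 0.000951) and 0.19 ± 0.03 (edgeR adjusted p = 0.000105) in those arms and fell by 0.15 on the log2 scale with the ASO (edgeR adjusted p = 0.000417). Rrm1, the large subunit, was at 369.9, 397 and 398 CPM in untransfected cells and 347, 355 and 351 CPM with the ASO. In NTG samples it was 403, 397 and 401 CPM with RfxCas13d, 396, 411 and 413 CPM with HiFi-RfxCas13d and 401, 432 and 417 CPM with DiCas7-11. The ASO samples were again all lower than the untransfected ones, of which sample 1 was the lowest, and the DiCas7-11 samples were all higher. Rrm1 was -0.15 ± 0.03 with the ASO (edgeR adjusted p = 0.000139) and 0.10 ± 0.03 with DiCas7-11 NTG (edgeR adjusted p = 0.00974). The DiCas7-11 call was lost without untransfected sample 1 (adjusted p = 0.0959) or DiCas7-11 NTG sample 2 (adjusted p = 0.0755), and in a fit of only the samples compared (adjusted p = 0.0897).

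Tyms, which makes thymidylate, was measured in the NTG arms at 103, 103 and 95.1 CPM with RfxCas13d, 96.0, 104 and 98.6 CPM with HiFi-RfxCas13d and 102, 97.7 and 102 CPM with DiCas7-11. Against 104, 98.7 and 104 CPM in untransfected cells, the ASO samples had 85.1, 90.9 and 84.7 CPM. Every ASO sample was below every untransfected one, and the NTG arms overlapped them. The ASO difference was -0.23 ± 0.04 (edgeR adjusted p = 1.54e-05), and the NTG differences were -0.03 ± 0.04, -0.04 ± 0.04 and -0.02 ± 0.04 (edgeR adjusted p = 0.749, 0.586 and 0.732). Over the 4 genes of nucleotide supply the median log2 fold change was -0.19 with the ASO.

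The cyclins E, which with their kinase fire the G1/S step, both rose with DiCas7-11 NTG. Ccne1 was at 29.4, 30.6 and 29.6 CPM in untransfected cells and 28.3, 27.3 and 25.7 CPM with the ASO. Its NTG samples had 31.1, 30.1 and 31.0 CPM with RfxCas13d, 34.6, 30.6 and 31.7 CPM with HiFi-RfxCas13d and 35.3, 35.2 and 36.3 CPM with DiCas7-11. The ASO samples lay below all untransfected samples, and those of HiFi-RfxCas13d and DiCas7-11 above them. Ccne1 rose with DiCas7-11 NTG (0.25 ± 0.05, edgeR adjusted p = 0.000969) and fell with the ASO (-0.14 ± 0.05, edgeR adjusted p = 0.0318), where the call was lost without untransfected samples 2 or 3 or ASO samples 2 or 3 (adjusted p = 0.0551 to 0.166). It was also lost with no filter on low counts (adjusted p = 0.143), with DESeq2 (adjusted p = 0.111), with the coding length correction (adjusted p = 0.0771) and in a fit of only the samples compared (adjusted p = 0.0667).

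Ccne2 had 103, 113 and 113 CPM in untransfected cells and 117, 117 and 119.7 CPM with the ASO. In the NTG arms it had 129, 123 and 120.1 CPM with RfxCas13d, 126, 130.4 and 136 CPM with HiFi-RfxCas13d and 123, 146 and 133 CPM with DiCas7-11. Each NTG and ASO sample lay above each untransfected sample. It rose in all 3 NTG arms, by 0.18 ± 0.05, 0.26 ± 0.05 and 0.30 ± 0.05 (edgeR adjusted p = 0.0210, 0.000549 and 0.000110), the largest rise of the set in the mean of the effectors (0.25 ± 0.04), and was 0.11 ± 0.05 with the ASO (edgeR adjusted p = 0.0870). The RfxCas13d call was lost without untransfected sample 1 (adjusted p = 0.121) or RfxCas13d NTG sample 1 (adjusted p = 0.0943). E2f1, the activating factor itself, was between -0.10 and -0.04 on the log2 scale in these 4 comparisons and passed in none, with group means of 75.3 to 80.5 CPM.

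Uhrf1, which brings the maintenance DNA methyltransferase to replicated DNA, was at 277, 283 and 288 CPM in untransfected cells and 259, 248 and 259 CPM with the ASO. Across the NTG arms it was 279, 287 and 290.2 CPM with RfxCas13d, 293, 292 and 297 CPM with HiFi-RfxCas13d and 308, 302 and 291 CPM with DiCas7-11. The ASO samples were all below, and the HiFi-RfxCas13d and DiCas7-11 samples all above, the untransfected ones. It fell by 0.15 on the log2 scale with the ASO (edgeR adjusted p = 2.09e-05) and rose by 0.09 ± 0.03 with DiCas7-11 NTG (edgeR adjusted p = 0.0107), a call lost without untransfected sample 1 (adjusted p = 0.0580) and in a fit of only the samples compared (adjusted p = 0.108). Of the subunits of the chromatin assembly factor CAF-1, Chaf1a rose with RfxCas13d and DiCas7-11 NTG (0.12 ± 0.04 and 0.15 ± 0.04, edgeR adjusted p = 0.0484 and 0.00741), and Chaf1b rose with the ASO (0.12 ± 0.04, edgeR adjusted p = 0.0127). For Chaf1a the RfxCas13d call was lost without untransfected samples 1 or 3 or that arm's samples 1 or 3, and with DESeq2 and with the coding length correction (adjusted p = 0.0526 to 0.176), and the DiCas7-11 call without that arm's sample 2 (adjusted p = 0.0630). That of Chaf1b was lost without untransfected sample 1 or ASO sample 2 (adjusted p = 0.0634 to 0.0666). Slbp, which binds the stem-loop of histone mRNA, passed in no comparison. Group means ran over 85.6 to 95.2 CPM for Chaf1a, 70.8 to 81.0 CPM for Chaf1b and 84.7 to 90.4 CPM for Slbp. The plot of the 12 genes by sample shows all 24 values of each.

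**Figure D4:**
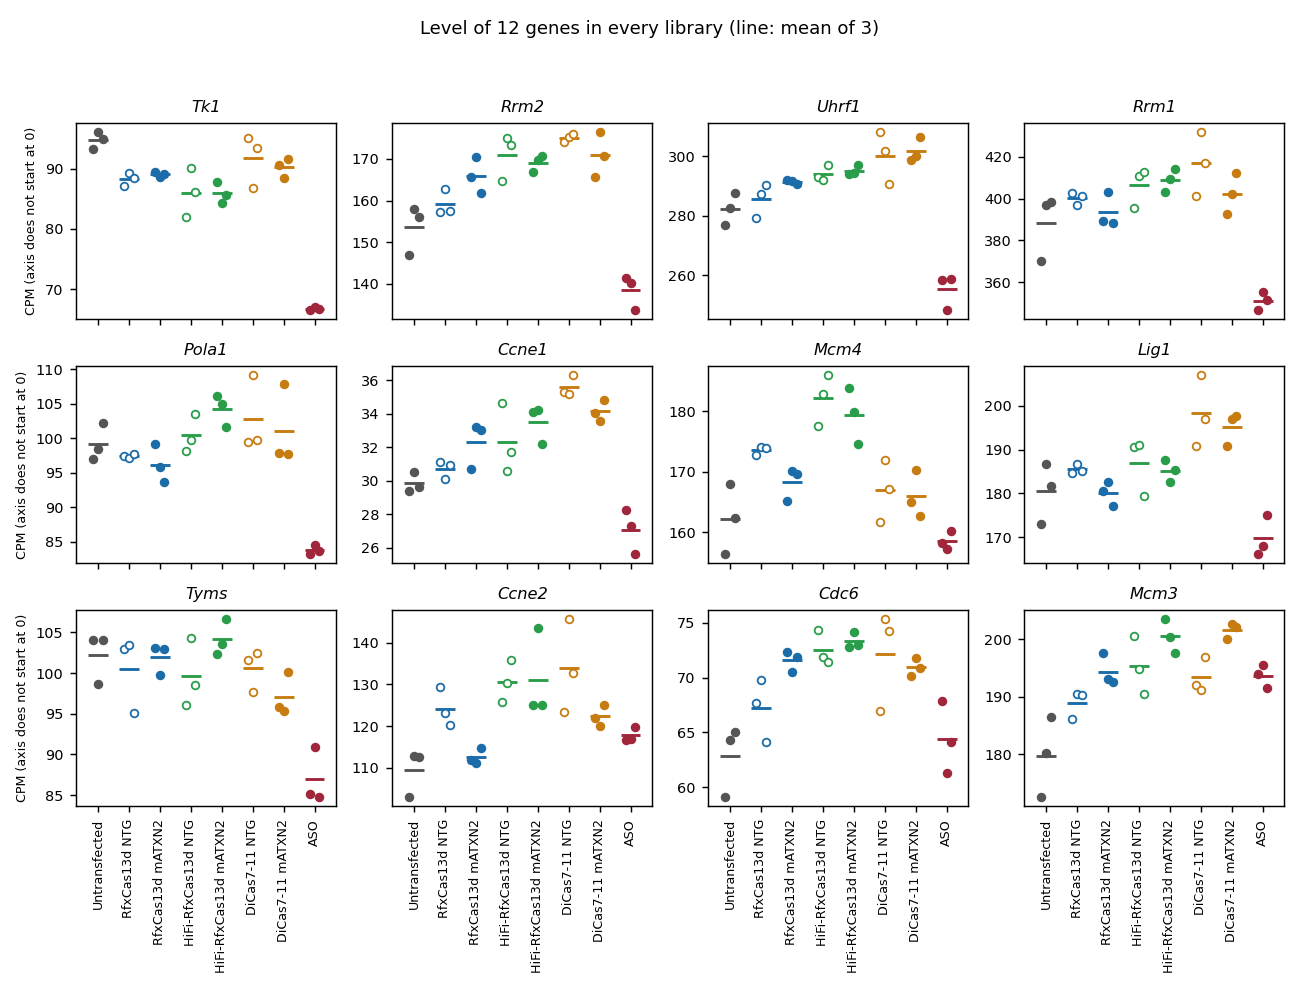
CPM of 12 genes in every sample, by group (open points are NTG arms, lines are means of 3, and the axes do not start at 0). Tk1 (66.5 to 67.0 CPM) and Pola1 (83.3 to 84.5 CPM) in the ASO samples lie below all other samples, and the mean of Ccne2 is lowest in untransfected cells (103 to 113 CPM).

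The genes with and without an E2F word in the promoter window can be set side by side, as a description. Of the 13 genes with it, 9 rose and none fell in the mean of the NTG arms, and 3 rose and 3 fell with the ASO. Of the 21 without it, 7 rose and 1 fell in the NTG mean, and 3 rose and 7 fell with the ASO. The median log2 fold changes were 0.10 with the word and 0.04 without it in the NTG mean, and 0.04 and -0.05 with the ASO. Of all tested genes, 12.4% rose and 12.7% fell in the NTG mean, and 21.0% and 21.7% with the ASO. Without untransfected sample 1, only Mcm3, Mcm7 and Cdc6 of the genes with the word passed in the NTG mean, all rising. Of those without the word, Mcm10 and Rrm2 rose and Rpa3 and Tk1 fell. With the ASO, Mcm5, Orc6 and Chaf1b then no longer passed, and Mcm2 fell.

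The effectors differed from each other at 6 of the 41 genes (Mcm2, Mcm4, Lig1, Rrm2, Ccne1 and Ccne2) in the F test over their 18 samples, where 13.1% of all genes passed. Mcm4 had the lowest p (edgeR adjusted p = 0.000714), with means that were highest with HiFi-RfxCas13d: 182 ± 4.26 CPM and 179 ± 4.68 CPM for its NTG and mATXN2 arms, against 167 ± 5.13 CPM and 166 ± 3.92 CPM for DiCas7-11 (SD, n = 3 each). Lig1 (edgeR adjusted p = 0.00373) and Ccne1 (edgeR adjusted p = 0.0222) were highest with DiCas7-11, at 198 ± 8.11 CPM and 35.6 ± 0.623 CPM in its NTG arm. For Rrm2 (edgeR adjusted p = 0.0188) and Ccne2 (edgeR adjusted p = 0.0101) RfxCas13d had the lowest mean in each crRNA arm, with 159 ± 3.20 CPM for Rrm2 and 124 ± 4.73 CPM for Ccne2 in the NTG arm. Mcm2 passed with edgeR adjusted p = 0.0304. The number of genes was 4 to 8 when a library was left out. Over all 8 groups, 27 of the 41 differed, where 50.3% of all genes did.

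The comparison of mATXN2 with NTG asks what the targeting crRNA added. Few genes of the set passed. With RfxCas13d and HiFi-RfxCas13d no gene passed edgeR's test, where 1.39% and 0.295% of all genes did. At an unadjusted p under 0.05 it was 5 genes for RfxCas13d (13.8% of all genes) and 3 for HiFi-RfxCas13d (7.45%). Limma-trend called 1 and 0, and DESeq2 called 0 in each. The gene that limma-trend called with RfxCas13d was Pole, at 123, 117 and 127 CPM in NTG and 133, 134 and 131 CPM in mATXN2 samples, with a log2 fold change of 0.12 ± 0.03 and the lowest edgeR adjusted p of the set there (0.0580). Its 3 mATXN2 samples lay above the 3 NTG samples.

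With DiCas7-11, 1 gene passed, where 0.942% of all genes did, and 6 had an unadjusted p under 0.05 (14.0% of all genes). It was Fen1, the flap endonuclease, which the rule for named genes did not include. Fen1 was at 64.2, 65.8 and 67.8 CPM in the NTG and 74.1, 76.2 and 72.4 CPM in the mATXN2 samples of DiCas7-11, which did not overlap. For RfxCas13d it was 69.3, 69.1 and 69.5 against 72.3, 70.6 and 72.7 CPM, which did not overlap, and for HiFi-RfxCas13d 69.8, 70.6 and 64.6 against 77.1, 73.9 and 70.4 CPM, which did. The log2 fold changes were 0.05 ± 0.04, 0.11 ± 0.04 and 0.17 ± 0.04 for RfxCas13d, HiFi-RfxCas13d and DiCas7-11, with edgeR adjusted p of 0.646, 0.487 and 0.0406. The DiCas7-11 call was lost without any of that effector's samples but NTG sample 3 (adjusted p = 0.0557 to 0.216) and in a fit of only the samples compared (adjusted p = 0.269). Without DiCas7-11 NTG sample 1, 4 other genes passed: Cdt1 rose, and Rfc1, Rpa3 and Ccne2 fell.

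Over the mean of the effectors, 2 of the 41 passed, where 5.19% of all genes did. Fen1 rose by 0.11 ± 0.02 (edgeR adjusted p = 0.00572) and passed in every alternative, including each left-out library. Cdt1 rose by 0.08 ± 0.02 (edgeR adjusted p = 0.0470) and missed the threshold in 17 of 25 alternatives, 14 of them left-out libraries, with adjusted p of up to 0.132 without DiCas7-11 NTG sample 2. Its values were 121, 118 and 117 CPM with RfxCas13d, 127, 121 and 119.6 CPM with HiFi-RfxCas13d and 125, 109 and 112 CPM with DiCas7-11 in the NTG arms. In the mATXN2 arms they were 125, 129 and 127 CPM with RfxCas13d, 127, 120.0 and 121 CPM with HiFi-RfxCas13d and 123, 129 and 127 CPM with DiCas7-11. Only with RfxCas13d were all mATXN2 samples above all NTG samples.

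None of the 12 genes described by sample passed under the targeting crRNA. Tk1 was 0.01 ± 0.04, -0.0046 ± 0.04 and -0.02 ± 0.04 in mATXN2 against NTG with RfxCas13d, HiFi-RfxCas13d and DiCas7-11. Rrm2 was 0.06 ± 0.03, -0.02 ± 0.03 and -0.04 ± 0.03 in the same order. For Ccne2 the values were -0.14 ± 0.05, 0.01 ± 0.05 and -0.13 ± 0.05, of which the RfxCas13d samples did not overlap and yet missed the threshold (edgeR adjusted p = 0.185). No gene of the set passed the test of whether the effectors differed in this response (0% of all genes passed). At an unadjusted p under 0.05 it was 5 (7.34% of all genes), with 0 calls from limma-trend. DESeq2 also made 0 calls, which may include missing values, as it gave no adjusted p for Atxn2 in this test. The set's median log2 fold change was 0.02, 0.02 and -0.03 for RfxCas13d, HiFi-RfxCas13d and DiCas7-11, against 0.002, -0.001 and -0.001 for all genes. The plot of crRNA effects shows all 41.

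**Figure D5:**
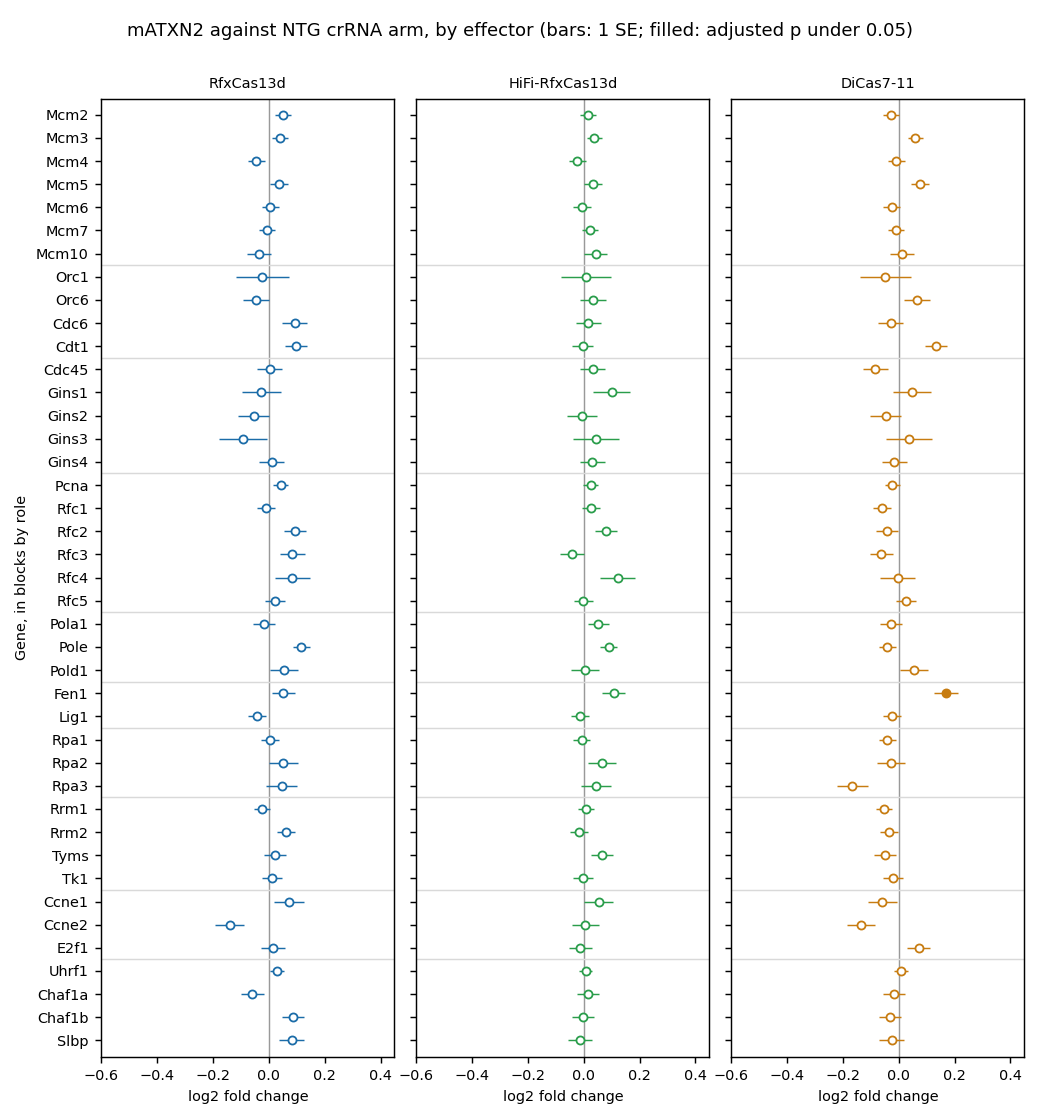
Log2 fold change of each of the 41 genes in the mATXN2 against the NTG arm, by effector, in blocks by role (bars are 1 SE, filled points passed an edgeR adjusted p of 0.05). Most points lie within 0.1 of 0, and Fen1 with DiCas7-11 (0.17) is the only filled point.

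Another list held 74 further genes of replication and G1/S control, of which 72 were tested and Ccnd2 and Cdk6 were too low. In the mean of the NTG arms 18 rose and 2 fell, where 12.4% of all genes rose and 12.7% fell. The median log2 fold change of the 72 was 0.05. With the ASO 14 rose and 19 fell, where 21.0% of all genes rose and 21.7% fell, with a median of -0.02. The counts of this list were not repeated without untransfected sample 1. With the targeting crRNA, none passed for any single effector, and over the mean of the effectors 1 rose and 1 fell. Those were Dctpp1, a pyrophosphatase that acts on dCTP, named after its values were seen (0.15 ± 0.03, edgeR adjusted p = 0.00425), and Hells (-0.08 ± 0.02, edgeR adjusted p = 0.0411). Hells, a chromatin remodeler of S phase, went from 219 ± 6.33 CPM in untransfected cells to 165 ± 2.35 CPM with the ASO (-0.40 ± 0.04, edgeR adjusted p = 4.89e-09) and rose with HiFi-RfxCas13d and DiCas7-11 NTG (0.15 ± 0.04 and 0.17 ± 0.04, edgeR adjusted p = 0.00851 and 0.00274). Rbl1, the pocket protein p107, fell with the ASO (-0.38 ± 0.05, edgeR adjusted p = 3.06e-07), as did Ccnd1, the G1 cyclin D1 (-0.14 ± 0.03, edgeR adjusted p = 7.00e-05), which rose with RfxCas13d and HiFi-RfxCas13d NTG (0.13 ± 0.03 and 0.18 ± 0.03, edgeR adjusted p = 0.00207 and 1.66e-05). Orc2, an origin recognition subunit, rose in every NTG arm and with the ASO, by 0.25 ± 0.04 (edgeR adjusted p = 4.09e-06) with the ASO.

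Genes of mitosis, a later window of the cycle, were read beside the set. Of 20 such genes, 3 rose and 2 fell in the mean of the NTG arms, where 12.4% of all genes rose and 12.7% fell. The median log2 fold change of the 20 was 0.05. With the ASO 3 rose and 11 fell, where 21.0% of all genes rose and 21.7% fell, with a median of -0.12. These counts are given over all samples only, with no untransfected sample left out. The part of the mitosis genes in the results of the replication genes was not tested.

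In all, 29 of the 41 genes passed in at least 1 of the 13 tests as reported here. The share of all tested genes that did so was not counted, and 50.3% of them passed the F test over 8 groups alone. The count of 29 is therefore not read as a trait of the set. The 12 that passed in none were Orc1, Gins1, Gins2, Gins4, Rfc1, Rfc3, Rfc4, Pold1, Rpa1, Rpa2, E2f1 and Slbp. A miss does not show that their levels were the same.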

How the data were processed

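RNA-seq was measured in 24 Neuro2A samples, 8 groups of 3. The authors deposited expected counts per gene, made by Salmon 1.5.2 on an NCBI mouse transcriptome with the GRCm39 genome as decoy, with sequence and GC bias correction, and summed to genes by tximport as counts scaled for transcript length (R 4.2.2). Length scaling removes differences in isoform usage between samples, and estimated counts of near-identical genes are shared out by the model. The libraries came from a stranded mRNA kit and were read single-end.

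From there, expected counts were rounded, only genes reaching 0.5 CPM in 3 or more libraries were tested, and library sizes were scaled by TMM. The edgeR 4.0.16 quasi-likelihood test (R 4.3.3) used 1 model of all 24 samples, with group as its term, and p-values were adjusted over the 13901 genes of each comparison (Benjamini-Hochberg, threshold 0.05). The study's own model was limma-trend, which here is an alternative (limma 3.58.1), beside DESeq2 1.42.0, DESeq2 size factors, no filter, a correction for coding length (matched for 87.2% of genes, GENCODE annotation), a replicate block, fits of only the samples compared, and each library left out. The tests were first run on simulated data with known changes. The study describes its cell replicates as biologically independent, and p-values measure the spread between them. With totals of 12665725 to 22504999, each of the 41 genes had at least 219.65 counts in every library.

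The 41 genes and all lists were chosen with earlier results of these data known. Of the genes that passed anywhere, the 12 with the smallest p over the 8 groups are given by sample (Tk1, Rrm2, Uhrf1, Rrm1, Pola1, Ccne1, Mcm4, Lig1, Tyms, Ccne2, Cdc6 and Mcm3). Values by sample of Fen1, Cdt1, Mcm10 and Pole were added after their values were seen.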

Additional observations from a re-analysis of the deposited data

Results flagged for a closer look

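For 5 genes the response to the ASO and the mean response of the NTG arms had opposite signs, each past the edgeR threshold, and differed from each other in the test added after the data were seen. These responses share the untransfected samples, and the difference between them does not use those samples. All of these tests were part of the rule that picked the genes, so the difference is no separate support. How many of all tested genes meet that rule was not counted. The ASO minus NTG difference (log2) was -0.28 for Rrm2 (edgeR adjusted p = 7.35e-10, from 0.13 with NTG and -0.15 with the ASO) and -0.22 for Rrm1 (edgeR adjusted p = 1.35e-08, from 0.07 and -0.15). For Uhrf1 it was -0.20 (edgeR adjusted p = 3.65e-09, from 0.05 and -0.15), for Ccne1 -0.28 (edgeR adjusted p = 3.98e-06, from 0.13 and -0.14) and for Lig1 -0.16 (edgeR adjusted p = 6.25e-06, from 0.08 and -0.09). In the ASO samples all 5 lay below the untransfected median. Without untransfected sample 1, the NTG mean response of Rrm1, Uhrf1, Ccne1 and Lig1 no longer passed. Ccne1 and Lig1 also missed the threshold without untransfected sample 3. Lig1 also missed it without HiFi-RfxCas13d NTG samples 1 or 2 or DiCas7-11 NTG sample 2. Uhrf1 also missed it without untransfected sample 2, RfxCas13d NTG samples 2 or 3, HiFi-RfxCas13d NTG sample 3 or DiCas7-11 NTG sample 1. The NTG mean call was also lost for Ccne1 and Uhrf1 with no filter, and for Ccne1 with DESeq2. For Rrm1, Uhrf1 and Lig1 it was lost with the coding length correction and in a fit of only the samples compared. The ASO call was lost in 8 of 13 alternatives for Ccne1 and in 5 of 13 for Lig1.

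The Rpa3 samples with the mATXN2 crRNA lay on opposite sides of NTG: every RfxCas13d mATXN2 sample lay above that effector's NTG samples, and every DiCas7-11 mATXN2 sample lay below its NTG samples. Neither change passed, with log2 fold changes of 0.05 ± 0.06 (SE, edgeR adjusted p = 0.792) and -0.17 ± 0.05 (edgeR adjusted p = 0.143). The responses differed by 0.21 on the log2 scale, and that difference between these effectors was not tested by itself. The F test of whether the response differed among all 3 effectors did not pass for Rpa3 (edgeR adjusted p = 0.619).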

How the results depend on the processing

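No alternative reversed the direction of any of the 95 gene calls made for the 41 genes. DESeq2 size factors kept 94 of them, no filter 86, DESeq2 88, limma-trend 94, the length correction 85 and a fit of only the samples compared 75. For RfxCas13d mATXN2 against NTG the count went from 0 to 1 with no filter and in a fit of only the samples compared (Ccne2 in each), and to 1 with limma-trend and with the replicate block (Pole in each). For DiCas7-11 it went from 1 to 3 with no filter, 2 with DESeq2 and 0 with only the samples compared. For the mean of the effectors it went from 2 to 1 with DESeq2 size factors, limma-trend and only the samples compared. For DiCas7-11 NTG against untransfected it went from 16 to 7 with only the samples compared. The causes were not tested.

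Leaving out a library gave 0 to 1 genes for RfxCas13d mATXN2, 0 to 0 for HiFi-RfxCas13d, 0 to 4 for DiCas7-11 and 1 to 3 for their mean. Against untransfected cells it gave 2 to 8 for RfxCas13d NTG, 9 to 13 for HiFi-RfxCas13d NTG, 8 to 18 for DiCas7-11 NTG, 8 to 21 for their mean and 12 to 16 for the ASO. It gave 17 to 21 for the ASO against the NTG mean, 23 to 29 over 8 groups, 4 to 8 over 3 effectors and 0 to 0 for the interaction. Of 828 gene calls so recomputed 690 were kept. Without untransfected sample 1 the median log2 fold change went from 0.04 to 0.02 for RfxCas13d NTG, 0.06 to 0.04 for HiFi-RfxCas13d NTG, 0.09 to 0.06 for DiCas7-11 NTG, 0.07 to 0.05 for their mean and -0.01 to -0.03 for the ASO.

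Same-numbered samples did not deviate together in every pair (correlations of -0.07 to 0.22 over 8326 genes, 5 of 21 over 0.1), so the numbers were not taken as pairs. The samples numbered 1, untransfected sample 1 among them, did in every comparison. Their correlations were 0.08 to 0.22, each the highest with its own number. None of the samples numbered 3 correlated best with its own number. With the replicate block all 95 calls were kept, and the counts were 9, 15 and 17 for the NTG arms, 22 for their mean, 19 for the ASO and 3 for the mean of mATXN2 against NTG. The lowest count of any of the 41 genes in a library was 219.65, and with 3 samples a group a single library could decide a call.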
